A study of Homo sapiens with 6 samples.

Results

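The Kruppel-like factors (KLFs) are DNA-binding proteins with a run of zinc fingers at the C-terminus that recognise GC-rich and CACCC-type sequences. Their N-terminal parts differ and decide whether a member activates or represses its targets. In T cells KLF2 keeps resting cells quiescent and circulating, and KLF10, first described as a TGF-beta inducible early gene, is rapidly induced by several growth and cytokine signals. Here 10 of these genes were followed: KLF2, KLF3, KLF4, KLF5, KLF6, KLF9, KLF10, KLF11, KLF12 and KLF13. Each gene was represented by the probe set that the platform annotation names for it, which gave 9 probe sets of 21448 in all. No probe set was named for KLF13 here, and KLF4 was too dim to be tested. The other 8 genes were among the 16086 probe sets tested.

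Each of 6 samples of Jurkat cells, a widely used human line from a T-cell acute lymphoblastic leukaemia (T-ALL), was hybridised to its own Affymetrix array. All cells had grown in RPMI with 10% FBS and then went 90 min without serum. The untreated group (n = 3) received nothing further. The CXCL12 group (n = 3) received the chemokine CXCL12, a ligand of the receptor CXCR4, at 100 ng/ml for 15 min. The comparison addresses which transcripts differ after this stimulation. The titles speak of biological replicates without naming separate cultures, so each p-value reflects a spread among samples that may be technical. A single cell line stands for T-ALL here, and in bulk RNA more cells with a transcript and more of it per cell cannot be told apart.

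Values are RMA log2 signals, in which 1 unit is a doubling, and probe sets with a mean under 4.44 were left out as dim. Median signals ran from 6.18 to 6.22 over the 6 arrays. Untreated replicate 1 stood apart from the rest, with a mean correlation of 0.982 with the other arrays against 0.987 to 0.989 for the others. It was the highest or the lowest of the 6 arrays for 49.2% of tested probe sets. The same held for 5 of the 8 tested KLF genes: it read lowest for KLF2, KLF6, KLF9 and KLF11 and highest for KLF12. All 10 T cell markers examined, the CD3 chains and LCK among them, read between 8.16 and 11.5. Of the 16 markers of B, myeloid, erythroid, epithelial and fibroblast cells with a probe set, 3 lay below the dim limit (MS4A1, LYZ and EPCAM), and others such as CD79A (7.75 to 8.11), KRT8 (7.61 to 7.88) and COL1A2 (7.76 to 7.94) did not. None of the tested markers passed limma's adjusted threshold.

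KLF10 was higher in each CXCL12 array than in any untreated array, as were 5.05% of all tested probe sets, while 4.48% were lower. No other tested KLF gene showed this, but KLF10 was placed in the list with its change known. KLF10 did not pass the test after adjustment over all probe sets. KLF2, KLF5, KLF6 and KLF9 had small positive differences, KLF3, KLF11 and KLF12 small negative ones, and in all 7 the groups overlapped.

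KLF10 encodes a repressor that recruits the SIN3A corepressor complex and takes part in TGF-beta signalling and regulatory T cell function. Its log2 signal was 7.43, 7.54 and 7.33 in untreated replicates 1, 2 and 3. It was 8.46, 7.76 and 8.21 in CXCL12 replicates 1, 2 and 3. The groups did not overlap, and CXCL12 replicate 2 lay nearest to the untreated arrays. Relative to the untreated mean, the signal was 2.03-fold in CXCL12 replicate 1, 1.26-fold in replicate 2 and 1.71-fold in replicate 3. The group means were 7.43 ± 0.11 and 8.14 ± 0.35 (SD, n = 3 each), a log2 difference of 0.71 (SE 0.17, 95% interval 0.35 to 1.07), or 1.64-fold. The limma adjusted p was 0.829 and the unadjusted p 0.00104.

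The adjusted threshold of 0.05 was passed by 2 of 16086 probe sets (0.0124%) and by 0 of the 8 tested KLF genes. Before adjustment, 1 of the 8, KLF10, had a limma p under 0.05, where 4.73% of all tested probe sets did. CXCL12 arrays lay above all untreated arrays for 5.05% of tested probe sets and for 1 of the 8 KLF genes, and below them for 4.48% and for 0 of the 8. These shares are a description, since KLF10 was placed in the list with its change known. By p, KLF10 stood at rank 18 of the 16086 probe sets, and with 1 array left out its rank ran from 6 (without CXCL12 replicate 2) to 74 (without untreated replicate 3), with 69 and 56 without CXCL12 replicates 1 and 3. Only 9 probe sets, KLF10 included, had a difference at least as high. Its spread within groups was also large for this table: the pooled SD was 0.26, and 87.0% of tested probe sets had a smaller one.

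**Figure D1:**
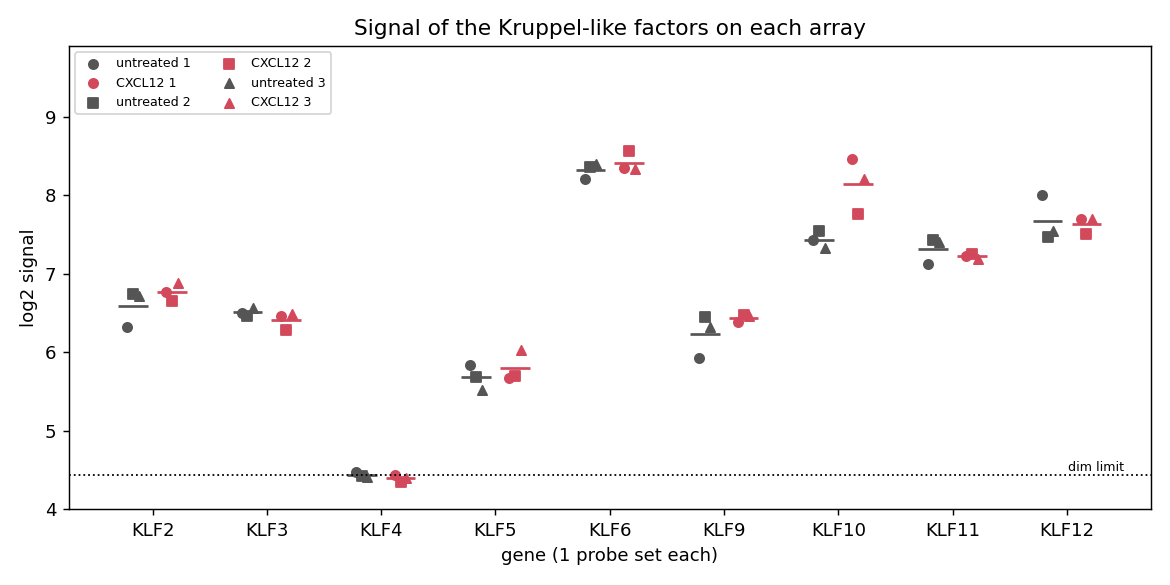
Log2 signal (vertical axis) of the 9 KLF genes with a probe set (horizontal axis) on each of the 6 arrays; grey symbols are untreated, red symbols CXCL12, shapes the replicate number, short bars the group means and the dotted line the dim limit of 4.44. KLF10 is the gene whose CXCL12 arrays, from 7.76 to 8.46, all lie above its untreated arrays, from 7.33 to 7.54.

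KLF11 is the closest relative of KLF10, a second TGF-beta inducible early gene that also recruits SIN3A. It read 7.12, 7.43 and 7.41 in the untreated arrays and 7.23, 7.25 and 7.19 in the CXCL12 arrays. The 3 CXCL12 values lay within the untreated range, and untreated replicate 1 was the lowest array. The difference was -0.10 (95% interval -0.37 to 0.18, limma adjusted p = 0.996). Without untreated replicate 1 it was -0.20. KLF9, a shorter SIN3A-binding member that glucocorticoid and thyroid hormone induce in many tissues, read 5.92, 6.45 and 6.32 in untreated and 6.38, 6.47 and 6.46 with CXCL12. Untreated replicate 1 was the lowest array, and untreated replicate 2 lay among the CXCL12 arrays. The difference was 0.21 (95% interval -0.11 to 0.52, limma adjusted p = 0.996), and 0.05 without untreated replicate 1. KLF13, the remaining member of this repressor group followed here, has no value.

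KLF2 and KLF4 form the pair that restrains T cell proliferation and that the kinase ERK5 and the MEF2 factors induce in several cell types. KLF2 read 6.32, 6.74 and 6.71 in untreated and 6.76, 6.65 and 6.87 with CXCL12. CXCL12 replicate 2 lay below 2 of the 3 untreated arrays, so the groups overlapped. The difference was 0.17 (95% interval -0.14 to 0.48, limma adjusted p = 0.996), and 0.03 without untreated replicate 1. KLF4 read 4.48, 4.43 and 4.41 in untreated and 4.44, 4.34 and 4.40 with CXCL12, around the dim limit of 4.44. Its difference was -0.05, and when the filter on dim probe sets was dropped the limma adjusted p was 0.994.

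KLF6 and KLF5 are activators linked to growth responses, KLF6 as an early gene after injury or serum and KLF5 as a factor of proliferating epithelium and smooth muscle. KLF6 read 8.21, 8.36 and 8.39 in untreated and 8.34, 8.56 and 8.33 with CXCL12. Only CXCL12 replicate 2 exceeded the untreated range. The difference was 0.09 (95% interval -0.18 to 0.36, limma adjusted p = 0.996), and 0.02 without CXCL12 replicate 2. KLF5 read 5.83, 5.69 and 5.52 in untreated and 5.67, 5.70 and 6.02 with CXCL12. Here CXCL12 replicate 3 alone exceeded the untreated range, and the difference of 0.12 (95% interval -0.19 to 0.42, limma adjusted p = 0.996) became 0.003 without it. The array that lifted each mean was thus CXCL12 replicate 2 for KLF6 and CXCL12 replicate 3 for KLF5.

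KLF3 and KLF12 are repressors that bind the corepressor CtBP. KLF3 read 6.50, 6.46 and 6.57 in untreated and 6.46, 6.29 and 6.48 with CXCL12. The difference was -0.10 (95% interval -0.36 to 0.16, limma adjusted p = 0.996), with CXCL12 replicate 2 the lowest array. It was -0.04 without that array. KLF12 read 8.00, 7.46 and 7.54 in untreated and 7.70, 7.50 and 7.70 with CXCL12, a difference of -0.03 (95% interval -0.36 to 0.30, limma adjusted p = 0.996). Untreated replicate 1 was the highest array. Without untreated replicate 1 the difference was 0.13, and without CXCL12 replicate 2 it was 0.03.

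For 7 of the 8 tested KLF genes, all but KLF10, the 95% interval stayed inside 1.5-fold in both directions, where 89.9% of all tested probe sets had such an interval. That of KLF9 reached farthest from 0 among the 7, to 0.52, under the 0.58 that marks 1.5-fold. Changes smaller than these intervals could not be seen with 3 arrays a side. The median difference over the 8 genes was 0.10, against 0.002 over all tested probe sets, and 5 of the 8 were positive against 50.7% of all.

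**Figure D2:**
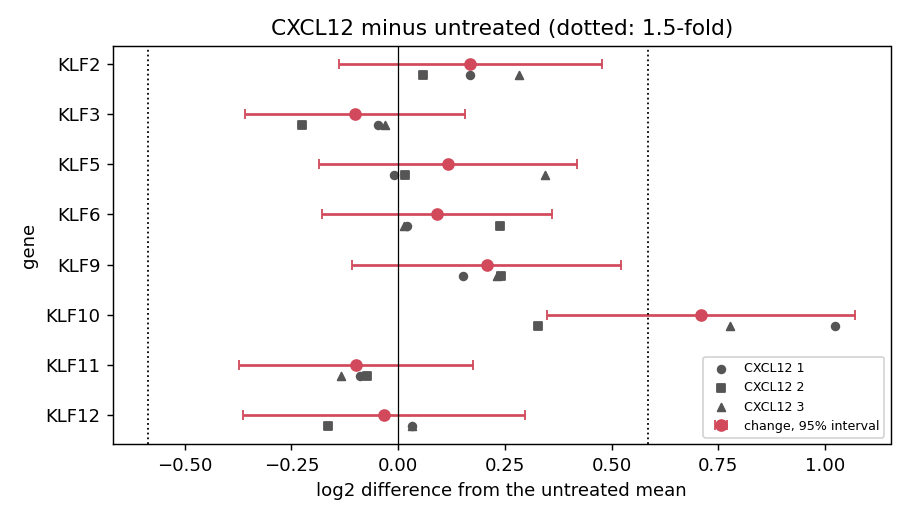
Log2 difference from the untreated mean (horizontal axis) for the 8 tested KLF genes (vertical axis); red points with bars are the CXCL12 minus untreated difference with its 95% interval, grey symbols the single CXCL12 arrays, dotted lines a 1.5-fold change. The interval of KLF10, from 0.35 to 1.07, excludes 0, and the other 7 intervals include 0 and stay inside the dotted lines.

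Whether KLF10 moved differently from its relatives was examined within arrays, by subtracting each other gene's log2 signal from that of KLF10 on the same array and comparing the groups. All 7 tests share the KLF10 values. KLF10 was placed in the list with its change known, so the differences below partly restate its own difference of 0.71. The difference from KLF11 was 0.31, 0.11 and -0.08 in untreated replicates 1, 2 and 3 and 1.23, 0.51 and 1.03 in CXCL12 replicates 1, 2 and 3. KLF10 therefore gained 0.81 on KLF11 (pooled SD 0.29, n = 3 each), with no overlap of the groups. The gain was 0.81 on KLF3, 0.74 on KLF12, 0.59 on KLF5 and 0.54 on KLF2, also without overlap, although for KLF2 the nearest arrays of the groups both rounded to 1.11. For KLF6 (0.62) and KLF9 (0.50) CXCL12 replicate 2 fell within the untreated range. The exact two-sided permutation p was 0.10 for the 5 genes without overlap, the smallest that 3 against 3 arrays can give, and 0.20 for KLF6 and KLF9. Adjusted over the 7 pairs these were 0.14 and 0.20. No pair could have reached 0.05 in this design, so the p-values neither support nor oppose a difference.

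**Figure D3:**
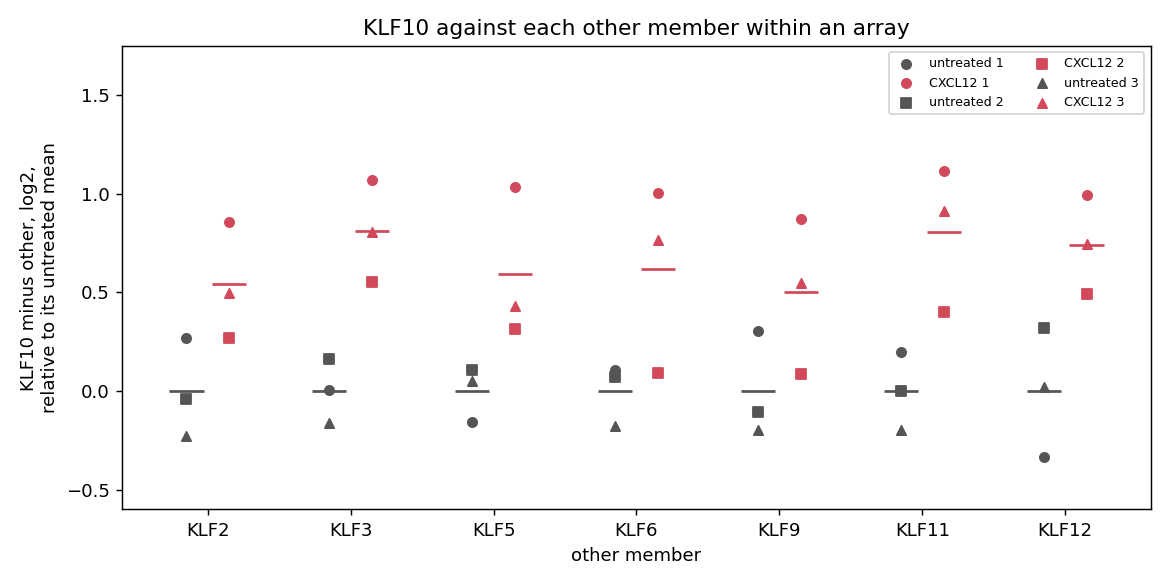
KLF10 minus each other KLF gene within an array (vertical axis, log2, set to 0 at the untreated mean of each pair) for 7 genes (horizontal axis); grey symbols are untreated and red symbols CXCL12 arrays, bars the group means. CXCL12 replicate 2, the red square, lies lowest of the red symbols in every pair and overlaps the grey symbols for KLF6 and KLF9.

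KLF10 kept its sign with each array left out in turn, with its lowest difference, 0.55, in the fit that lacked CXCL12 replicate 1 and its highest, 0.90, in the fit that lacked CXCL12 replicate 2. It passed the adjusted threshold in none of these fits (lowest limma adjusted p = 0.145). In log2 units KLF10 had the widest range of the tested KLF genes, ahead of KLF12 (-0.14 to 0.13). Relative to the size of their small differences, the other genes moved more. Leaving out untreated replicate 1 took KLF2 from 0.17 to 0.03, KLF9 from 0.21 to 0.05 and KLF6 from 0.09 to 0.03, while it took KLF11 from -0.10 to -0.20. KLF10 did not depend on that array: it was 0.71 without it.

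**Figure D4:**
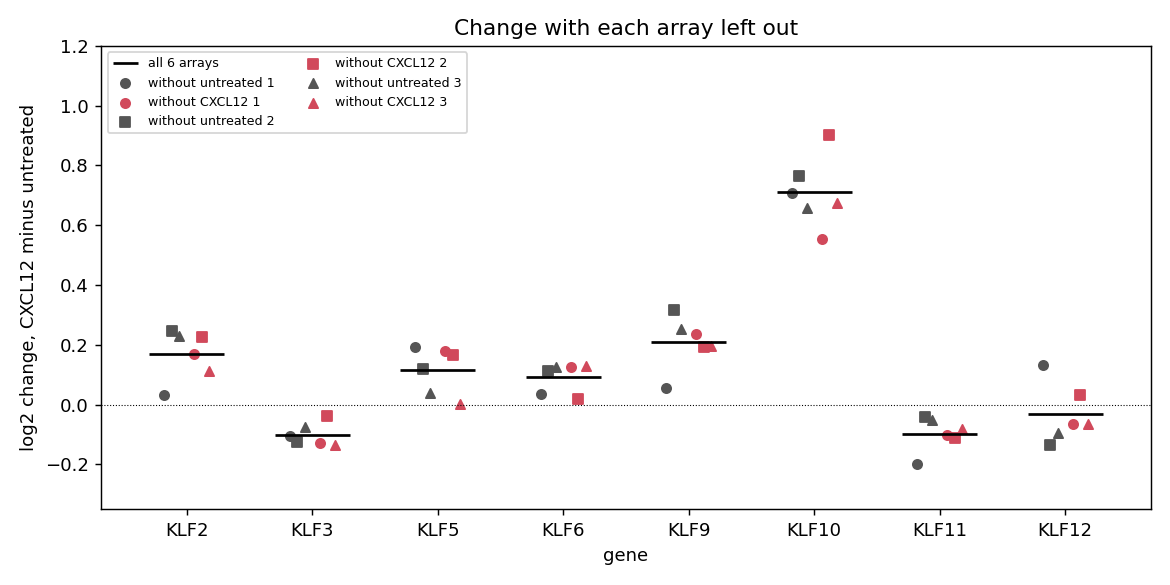
Log2 difference, CXCL12 minus untreated (vertical axis), of the 8 tested KLF genes (horizontal axis) with all 6 arrays (black bars) and with 1 array left out (grey symbols for an untreated, red symbols for a CXCL12 array, shapes for the replicate number). KLF10 stays between 0.55 and 0.90, and KLF12 crosses 0 without untreated replicate 1 (0.13) or CXCL12 replicate 2 (0.03).

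The 3 named genes whose profile over the 6 arrays was closest to that of KLF10, after each was centred on its untreated mean, were the long noncoding RNA LINC03122, DUSP6, a phosphatase that inactivates ERK, and SGK1, a serum- and glucocorticoid-regulated kinase. Their root-mean-square distances from KLF10 were 0.11, 0.12 and 0.15 log2 units, among 13461 candidate probe sets. DUSP6 read 4.88, 4.98 and 4.87 in untreated and 5.71, 5.22 and 5.51 with CXCL12, with CXCL12 replicate 2 lowest of its group. SGK1 read 5.58, 5.67 and 5.71 in untreated and 6.72, 6.30 and 6.45 with CXCL12, in the same order within the CXCL12 group. LINC03122 read 4.29, 4.51 and 4.10 in untreated arrays and 5.11, 4.60 and 5.03 in CXCL12 arrays. Its untreated mean lay below the dim limit of 4.44, so it passed the filter only through the CXCL12 arrays, and its difference is given as a value without support from its p. The differences were 0.57 for DUSP6, 0.83 for SGK1 and 0.61 for LINC03122, with limma adjusted p of 0.829 for DUSP6 and 0.172 for SGK1. All of them come from the same 6 libraries, and likeness over 6 arrays that fall into 2 groups is a description. The 3 genes were picked for this likeness, so an order shared with KLF10 within the CXCL12 group is partly built in.

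Promoter sequence was read from RefSeq windows of GRCh38.p14, from 250 bases before to 50 after each annotated start, to show where sites for signal-responsive factors lie beside these readings. Windows were matched for 8 of the 10 genes, all but KLF3 and KLF10, and there were 13 because some genes have several starts. The motifs were chosen with the values known and searched on both strands. They were the CArG box of SRF (in 1.29% of all 35116 windows), the cyclic AMP response element TGACGTCA (1.85%), the EGR-type sites GCGTGGGCG (0.795%) and GCGGGGGCG (5.07%), the MEF2 element (0.572%) and the AP-1 site TGANTCA (7.71%). No pattern contains another, though matches can share bases at their ends. The MEF2 element was found in KLF2, the response element in KLF11, GCGGGGGCG in KLF2 and KLF6, and TGANTCA in 1 of the 4 windows of KLF12. The CArG box and GCGTGGGCG were in none of the 13. The stretches below show the upstream sequence of KLF2, KLF6 and the KLF10 relative KLF11 around a match, whose letters are in capitals.
KLF2, chr19:16324681-16324740, plus strand, MEF2 element: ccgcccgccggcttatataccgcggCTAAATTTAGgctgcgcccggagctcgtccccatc
KLF6, chr10:3785240-3785299, minus strand, EGR-type site: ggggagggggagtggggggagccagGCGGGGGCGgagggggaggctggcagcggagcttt
KLF11, chr2:10044034-10044063, plus strand, cyclic AMP response element: atttccagccaTGACGTCAccccggtcctg
The first base of the match is at -120 from the start in KLF2, -65 in KLF6 and -176 in KLF11. KLF11 has 2 windows, and the element was in 1 of them, that of the more downstream start. KLF2, KLF6 and KLF11 had the differences of 0.17, 0.09 and -0.10 given above. A match is a string of letters and was not tested as a binding site.

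The rest of the KLF and SP family, which shares the zinc fingers, gave 13 tested genes of 16. None passed limma's adjusted threshold in either direction. An unadjusted p under 0.05 was found for 1 of the 13, where 4.73% of all tested probe sets had one. CXCL12 arrays lay above all untreated arrays for 2 of the 13 (5.05% of all) and below them for 0 (4.48% of all). Of the 13, 6 had positive and 7 negative differences, and the median was -0.04 with values from -0.23 to 0.29. SP8, a developmental SP factor, had the smallest unadjusted p: it read 5.71, 5.58 and 5.44 in untreated and 5.77, 5.80 and 6.04 with CXCL12. Its groups did not overlap, with untreated replicate 1 and CXCL12 replicate 1 lying closest (difference 0.29, limma adjusted p = 0.996). SP9 had -0.23 with overlapping groups (-0.08 without CXCL12 replicate 1 and -0.39 without CXCL12 replicate 2), and SP4 0.15 with groups that did not overlap (0.09 without untreated replicate 1). The erythroid factor KLF1 and KLF7, KLF15, KLF16, KLF17 and the ubiquitous SP1 and SP3 had differences between -0.19 and 0.10.

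Genes that KLF proteins work with gave no call either. Over all tested probe sets 0.0124% passed adjusted and 4.73% had an unadjusted p under 0.05 with limma. At such shares a count of 0 in lists this small says little about their genes. Of the 11 CtBP, SIN3 and HDAC corepressor genes, all tested, 5 had positive and 6 negative differences, the median was -0.04, and 0 passed with limma, adjusted or at an unadjusted p under 0.05. SUDS3, a SIN3 complex subunit, had the smallest p in that list with a difference of 0.23, and 0.05 without untreated replicate 1, where its signal was lowest. Of the CtBP genes, whose proteins KLF3 and KLF12 bind, CTBP1 differed by 0.0002 and CTBP2 by -0.11. For CTBP2 (limma adjusted p = 0.996), alone of the 11, every CXCL12 array lay below every untreated one, as for 4.48% of all tested probe sets. Of the 6 ubiquitin ligase genes known to act on KLF proteins, 3 were positive and 3 negative, and 0 passed with limma, adjusted or unadjusted, with SMURF1, which the TGF-beta list also holds, at 0.17 and WWP1 at -0.16. Without untreated replicates 1 and 3 in turn, WWP1 was at -0.28 and -0.05.

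Among 15 tested genes of TGF-beta and SMAD signalling, the pathway after which KLF10 and KLF11 were first named, 7 had positive and 8 negative differences with a median of -0.0005. With limma 0 passed after adjustment and 1 of the 15 had an unadjusted p under 0.05, where 4.73% of all tested probe sets did. CXCL12 arrays lay above all untreated arrays for 1 of the 15 (5.05% of all) and below them for 1 (4.48% of all). SKIL, a corepressor of SMAD proteins that TGF-beta itself induces, stood apart from the rest of the list. It read 4.82, 4.82 and 4.81 in untreated and 5.13, 5.41 and 5.78 with CXCL12, a difference of 0.63 (SE 0.16, limma adjusted p = 0.829), close in size to that of KLF10. The groups did not overlap, but the order within the CXCL12 group differed from KLF10: SKIL was highest in replicate 3 and lowest in replicate 1. The inhibitory SMAD6 had -0.25, with every CXCL12 array below every untreated one, and the corepressor SKI had -0.23 with overlapping groups, with limma adjusted p of 0.996 for both. SMAD6 was at -0.16 without untreated replicate 1, and SKI at -0.13 without CXCL12 replicate 3. SMAD7, SMAD3 and the receptors TGFBR1 and TGFBR2 had differences between -0.12 and 0.14.

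Upstream of KLF2, the 9 tested genes of the ERK5, MEF2 and FOXO group gave 2 positive and 7 negative differences. Their median was -0.03, and with limma 0 passed adjusted (0.0124% of all tested probe sets) or unadjusted (4.73% of all). A count of 0 in 9 genes says little beside these shares. CXCL12 arrays lay above all untreated arrays for 0 of the 9 (5.05% of all) and below them for 1 (4.48% of all). That gene was FOXO3, with a difference of -0.07. MEF2D, a factor of the MEF2 family, had the smallest p with -0.24 (limma adjusted p = 0.996), overlapping groups and -0.12 without untreated replicate 1. Downstream, the 6 tested genes of T cell trafficking and quiescence linked to KLF2 had 2 positive and 4 negative differences and a median of -0.12. With limma 0 passed after adjustment and 1 gene had an unadjusted p under 0.05, where 4.73% of all tested probe sets did. S1PR1, the sphingosine-1-phosphate receptor that lets T cells leave lymphoid organs and that KLF2 activates, read 6.12, 5.88 and 5.87 in untreated and 5.74, 5.69 and 5.48 with CXCL12. The groups did not overlap, as for 4.48% of all tested probe sets in this direction, and the difference of -0.32 (SE 0.13) had a limma adjusted p of 0.996. It was -0.24 without untreated replicate 1 and also -0.24 without CXCL12 replicate 3. The cell cycle inhibitor CDKN1A had 0.27 and overlapping groups, with 0.12 without untreated replicate 2.

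**Figure D5:**
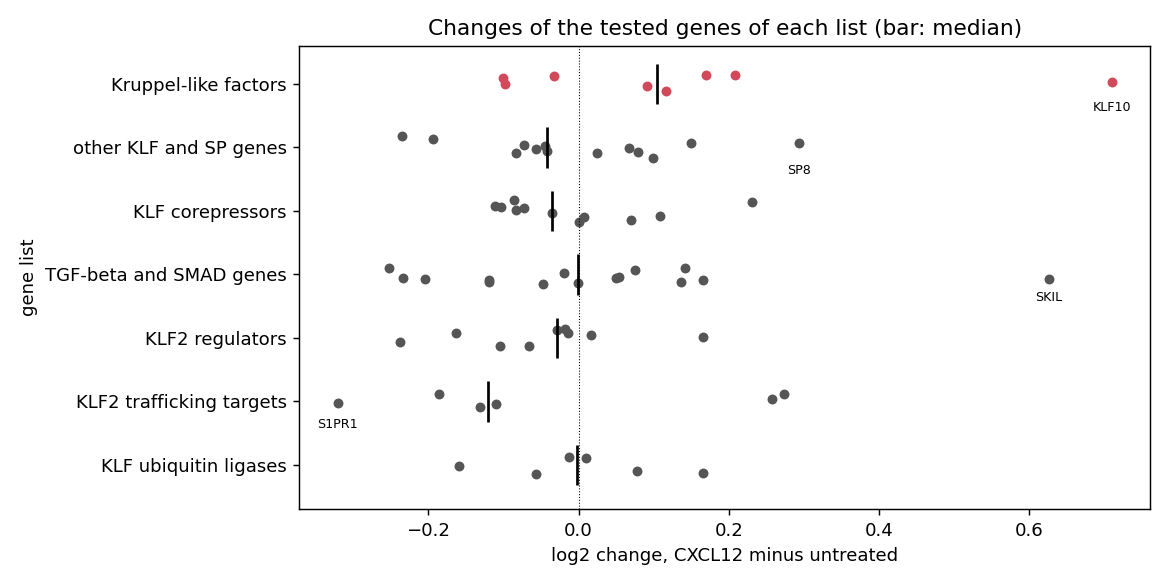
Log2 difference, CXCL12 minus untreated (horizontal axis), of each tested gene in 7 lists (vertical axis; points are scattered vertically for sight only); black bars are list medians and named genes have an unadjusted limma p under 0.05. The medians lie between -0.12 and 0.10, and KLF10 (0.71) and SKIL (0.63) lie far to the right of the other genes of their lists.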

How the data were processed

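Gene expression was measured on 6 Affymetrix arrays from Jurkat cells, 3 untreated and 3 given CXCL12, labelled with a whole-transcript kit per the labels' protocols. The deposited table holds 1 log2 value per probe set and array. Per the submitters' processing notes, the tools were RMA and the Transcriptome Analysis Console, with settings and build not given in the sources. Scanner files were not used here, and the number of arrays limits the precision. Of 21448 probe sets, 17709 had 1 gene symbol in the platform annotation, which can be old. No KLF gene had more than 1 probe set.

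The dimmest 25% of probe sets by mean were left out. The other 16086 were fitted in R 4.3.3 with limma 3.58.1 (two-sided, no covariates), with Benjamini-Hochberg adjustment over all of them. Differences are CXCL12 minus untreated. The fit was tested on simulated data. KLF10 was set against each other tested KLF gene within arrays by exact permutation.

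The genes and lists were chosen with earlier results of these data known. Named are all members, the 3 genes with the profile closest to KLF10 and up to 3 genes with the smallest p of each list. Other genes named with a list or as markers were chosen after their values were seen. As alternatives, the dim filter, the normalization, the prior and the threshold were changed, array weights or a replicate block were added, and each array was left out. After subtraction of group means, same-numbered arrays correlated at -0.19, -0.11 and 0.11, and the labels state no pairing, so numbers were not taken as pairs.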

Additional observations from a re-analysis of the deposited data

How the results depend on the processing

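The count of 0 passing KLF genes held in all 14 refits. KLF10 kept its sign in all 14 (0.55 to 0.90, lowest limma adjusted p = 0.145). The 2 probe sets past the threshold fell to 1 under median centring, cyclic loess or no dim filter. Their count rose to 3 with the lower 50% left out or with the prior changed. It rose to 4 with array weights (SGK1 entering, limma adjusted p = 0.0495) and to 761 at an unadjusted p under 0.05. With each array left out it ran from 1 to 2. Signs turned for KLF12 with array weights (0.0791) and with arrays left out (-0.136 to 0.133), FBXW7 (-0.0358 to 0.156) and FOXO1 (-0.255 to 0.000433), none of them called. The TGF-beta list median was 0.0495 with the lower 50% left out. With each array left out, list medians ran from -0.0813 to 0.0517 for TGF-beta genes, -0.0548 to 0.0366 for other KLF and SP genes, -0.0934 to 0.000433 for KLF2 regulators and -0.141 to 0.00961 for KLF2 trafficking targets. KLF10's gain on each other gene was refitted only with quantile normalization again and with each array left out. It stayed positive in these, from 0.32 (KLF9) to 1.01 (KLF11). The replicate block left 2 probe sets and 0 KLF genes past the threshold, with KLF10 at an unadjusted limma p of 0.00165. No scaling moved the median of all probe sets beyond -0.02. Averaging probe sets was not run, since each KLF gene had 1. The cause was not tested. A member's 95% interval reached 0.31 to either side in the median (0.29 over all tested probe sets), which limits what smaller changes can show.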
